A study of Mus musculus with 12 samples.

Results

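Bone morphogenetic protein (BMP) signalling was followed through 9 genes out of the 19505 measured with a gene symbol. They were the secreted antagonist Grem1, the ligands Bmp2, Bmp4 and Bmp7, the receptors Bmpr1a and Bmpr2 and the target genes Id1, Id2 and Id3, and all 9 were found by symbol, each with 1 probe set. Grem1 and Bmp4 were picked because earlier results of these data showed Grem1 low in PGC-1alpha explants in water and Bmp4 high in PGC-1alpha explants under phenformin. Those 2 differences are therefore given as descriptions, with no test. Further comparisons of these 2 genes that use the same arrays were tested but are not free of that choice. The other genes were listed for their roles in the pathway, also with earlier results of these data known. In these explants Grem1 lay below background in all 6 arrays of the PGC-1alpha line and above it in all 6 arrays of the control line. Bmp4 lay higher in the phenformin arrays than in the water arrays of both lines, though the control-line difference did not pass the test. The receptors did not pass in any comparison. Of the Id genes, Id2 passed as higher in the PGC-1alpha line in water and Id3 as higher under phenformin in the control line. Each of these calls held in 9 of 12 fits with 1 array left out. Id3 also lay higher under phenformin in the PGC-1alpha line without passing, and its responses in the lines did not differ past the test.

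The material was lung metastasis explants of NMuMG-ErbB2 cells, a mouse mammary gland epithelial line that carries the ErbB2 oncogene, recovered after tail vein injection into mice and kept in culture. Total RNA of 12 samples was measured on Clariom S mouse expression arrays, which read a whole transcript through 1 probe set. The 4 groups of 3 arrays were PGC-1alpha overexpressing explants with 100 uM phenformin for 4 days, PGC-1alpha explants with water for 4 days, control-line explants (VC in the titles) with the same phenformin treatment, and control-line explants with water. All 4 groups share the NMuMG-ErbB2 background. PGC-1alpha, encoded by Ppargc1a, is a transcriptional coactivator known for mitochondrial biogenesis, and phenformin is a biguanide that inhibits respiratory complex I. The labels give neither the promoter of the PGC-1alpha construct, nor the number of clones or pooled animals behind an explant line, nor whether replicates were separate cultures. Each p-value here therefore rests on array-to-array spread that could be purely technical.

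BMP ligands are secreted dimers that bring together type I and type II serine/threonine kinase receptors, which phosphorylate Smad1, Smad5 and Smad9 so that these enter the nucleus with Smad4. Secreted antagonists such as Gremlin 1, Noggin and Chordin bind the ligands outside the cell and keep them from the receptors. The Id genes are the classic early targets, and their proteins block basic helix-loop-helix transcription factors. In the mammary gland, BMP signalling takes part in bud formation and in ductal and luminal development.

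The promoters of the 4 genes whose levels the results turn on are shown because BMP Smads bind GC-rich elements near their targets. Each is the 250 bases before the gene's start in RefSeq's GRCm38.p6 table, 5′ to 3′ on the gene's own strand. Capitals mark GGCGCC, a Smad1/5 element known from Id genes whose letters read the same on both strands.
Grem1: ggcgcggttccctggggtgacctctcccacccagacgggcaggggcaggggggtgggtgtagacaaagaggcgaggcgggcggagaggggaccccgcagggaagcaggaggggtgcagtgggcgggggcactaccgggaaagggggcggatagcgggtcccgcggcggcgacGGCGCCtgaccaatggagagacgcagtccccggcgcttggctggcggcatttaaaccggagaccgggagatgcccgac
Bmp4: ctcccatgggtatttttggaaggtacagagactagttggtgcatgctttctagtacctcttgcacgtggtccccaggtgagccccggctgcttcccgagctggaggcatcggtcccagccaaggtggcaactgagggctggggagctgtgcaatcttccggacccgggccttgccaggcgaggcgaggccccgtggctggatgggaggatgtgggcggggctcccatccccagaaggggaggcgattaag
Id2: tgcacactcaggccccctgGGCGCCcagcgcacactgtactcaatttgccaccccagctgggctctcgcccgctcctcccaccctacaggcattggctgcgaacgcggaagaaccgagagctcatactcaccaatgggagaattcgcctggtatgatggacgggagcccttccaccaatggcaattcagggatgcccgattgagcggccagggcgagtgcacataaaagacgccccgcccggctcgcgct
Id3: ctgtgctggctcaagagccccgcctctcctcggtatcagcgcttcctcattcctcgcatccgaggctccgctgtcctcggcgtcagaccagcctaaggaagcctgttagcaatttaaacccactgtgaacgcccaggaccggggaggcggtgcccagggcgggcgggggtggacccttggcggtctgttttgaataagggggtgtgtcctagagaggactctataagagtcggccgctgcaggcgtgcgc
The windows lie at chr2:113758649-113758898 on the minus strand for Grem1, at chr14:46390670-46390919 on the minus strand for Bmp4, at chr12:25096093-25096342 on the minus strand for Id2 and at chr4:136143572-136143821 on the plus strand for Id3. The Grem1 window holds GGCGCC once, between 78 and 73 bases before the start, and the Id2 window holds it once, between 231 and 226 bases before the start. The Bmp4 and Id3 windows do not hold these letters. Of the 9 genes, 6 matched a promoter entry, and the windows of Bmpr1a and Bmpr2, not printed, also hold 1 copy each. Among all 32851 promoter windows of this length, 9.59% hold GGCGCC. A match describes letters, not binding.

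The values are the authors' normalized expression values, read here as log2, and a difference of 1 is then a doubling. Background was set, array by array, at the level that 95% of negative control probe sets did not exceed, which left 34.6% to 39.1% of genes above it. Ppargc1a lay at 8.18, 8.20 and 8.37 in PGC-1alpha explants with phenformin and at 8.11, 8.06 and 8.26 in PGC-1alpha explants in water. It lay between 6.97 and 7.29 in the 6 control-line arrays, none above background, so every array matched the line in its label. The PGC-1alpha arrays lay little above background, and the fold was at least 1.26 under phenformin and 1.29 in water. Ppargc1a does not check the treatment in the labels. Control-line water replicate 2 stood apart from the other arrays on the second principal component (score 33.3, next highest 9.16). The negative control medians were 5.09 to 5.20 in the 6 phenformin arrays and 4.69 to 5.02 in the 6 water arrays. The gap between positive and negative control medians was 3.92 to 4.08 in the phenformin arrays and 4.11 to 4.31 in the water arrays. The part of the control shift in the phenformin differences below was tested only with this gap as a covariate. That fit cannot decide it, because the gap separates the treatments. The epithelial genes Cdh1, Krt8, Krt18 and Krt19 were above background in all 12 arrays, while Epcam, Krt5, Krt14, Cldn3 and Cldn7 were above it in none.

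The question of the first comparison is what PGC-1alpha overexpression goes with in the BMP pathway. Grem1, which encodes Gremlin 1, a ligand-binding antagonist of BMP2, BMP4 and BMP7, had log2 values of 7.12, 6.69 and 7.02 in PGC-1alpha explants with phenformin, and of 6.88, 7.38 and 7.54 in PGC-1alpha explants in water. Control-line explants had 9.85, 10.03 and 9.87 with phenformin, and 10.08, 9.84 and 9.96 in water. All 6 control-line arrays lay far above all 6 PGC-1alpha arrays, and the phenformin and water arrays overlapped within each line. In water the mean was 7.27 ± 0.35 in PGC-1alpha explants and 9.96 ± 0.12 in control-line explants (SD, n = 3 each), a log2 difference of -2.69 ± 0.16 (SE). Since no PGC-1alpha array exceeded background, the fold was bounded with the higher of background and measured value in each dim array, which gave at least 4.40-fold lower Grem1 in the PGC-1alpha line.

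Under phenformin, on arrays that the choice of Grem1 did not use, its mean was 6.94 ± 0.22 in PGC-1alpha explants and 9.92 ± 0.10 in control-line explants (SD, n = 3 each). Grem1 fell by 2.97 ± 0.16 on the log2 scale (SE; limma, adjusted p = 4.19e-07 over all genes), at least 3.92-fold, and its p ranked 2 among 19505 genes. These arrays come from the same 2 lines, so this is not independent support for a difference between lines in general. Leaving out 1 array at a time moved the difference only between -3.06 and -2.85 under phenformin, and between -2.83 and -2.50 in water. Phenformin minus water gave -0.32 ± 0.16 for Grem1 in PGC-1alpha explants (adjusted p = 0.483), where both groups were below background, and -0.04 ± 0.16 in control-line explants (adjusted p = 0.921). In order of level, control-line water and control-line phenformin did not differ beyond their spread, PGC-1alpha water came next, and PGC-1alpha phenformin lay lowest, overlapping with it.

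Grem1 is also expressed by fibroblasts, and the explants grew out of lung tissue, so markers of other cells were read beside it. Of 14 fibroblast and mural markers measured, 13 were above background in no array, Pdgfrb, Dcn, Lum and Thy1 among them, and Col1a1 was above it in 1 of 12. Their summed level spanned 9.42 to 9.54 in PGC-1alpha explants with phenformin and 9.42 to 9.63 in PGC-1alpha explants in water, against 9.40 to 9.61 in control-line explants with phenformin and 9.49 to 9.78 in control-line explants in water (log2 of the sum). These ranges overlapped, but they are sums of values that lay mostly below background. All 8 endothelial markers and the 6 lung epithelial markers measured lay at or below background in every array. Of 7 leukocyte markers measured, only Mrc1, a macrophage mannose receptor, exceeded background, in 8 arrays. It was higher in the PGC-1alpha line by 1.48 under phenformin (adjusted p = 0.000176) and by 1.27 in water (adjusted p = 0.000918). The leukocyte sum was 9.41 to 9.49 in PGC-1alpha explants with phenformin and 9.63 to 9.70 in PGC-1alpha explants in water, against 8.44 to 8.68 in control-line explants with phenformin and 8.69 to 8.88 in control-line explants in water. The other 6 leukocyte markers were above background in no array. Between the lines under phenformin, Ptprc, Adgre1, Csf1r and Lyz2 differed by -0.02, -0.15, -0.17 and -0.11, and Itgam and Cd3e by 0.07 and 0.32. In water these 6 differed by 0.06, 0.21, 0.02, 0.07, 0.35 and 0.30 in the same order. None of the 6 passed in either comparison (limma). The part of fibroblasts or of Mrc1-expressing cells in the Grem1 difference was not tested. In bulk RNA, fewer cells of a type and less RNA per cell cannot be told apart.

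**Figure D1:**
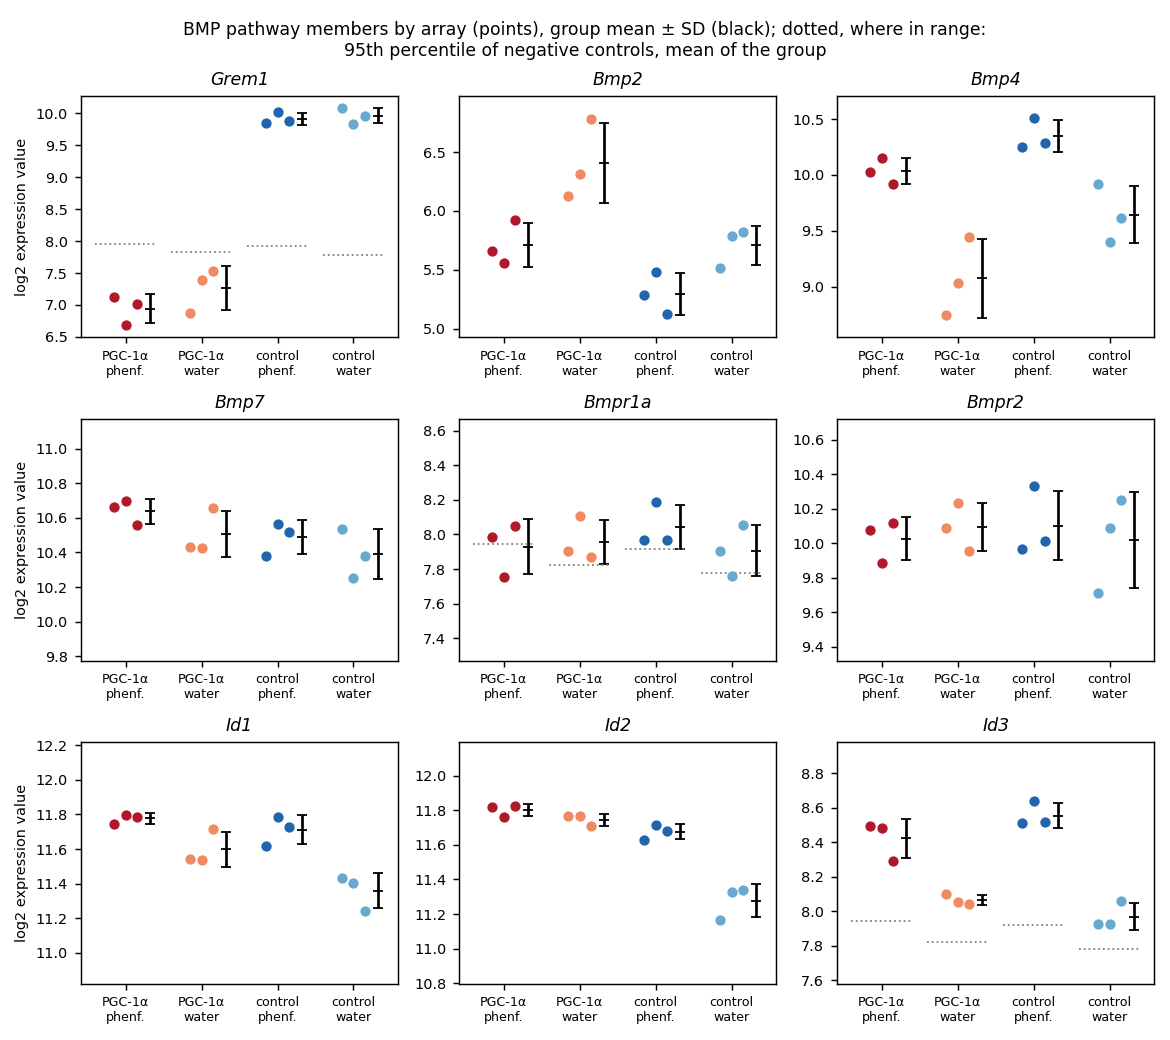
Log2 expression value of each of the 9 genes (vertical axes, 1 panel per gene) in every array, by group, with the group mean ± SD in black and, where in range, the group's mean background as a dotted line. Grem1 lies below background in all 6 PGC-1alpha arrays and between 9.84 and 10.08 in the 6 control-line arrays, while Bmp4, Id1 and Id3 lie higher in the phenformin arrays than in the water arrays of the same line.

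Nbl1, which encodes DAN, a secreted antagonist of the same protein family as Gremlin 1, was lower in the PGC-1alpha line as well. It had log2 values of 8.81, 8.87 and 8.56 in PGC-1alpha explants with phenformin and 8.56, 8.66 and 8.71 in PGC-1alpha explants in water. Control-line explants had 9.67, 9.86 and 9.77 with phenformin and 9.54, 9.46 and 9.52 in water. Every control-line array exceeded every PGC-1alpha array, and all 12 were above background. Under phenformin Nbl1 fell by 1.01 ± 0.11 on the log2 scale in the PGC-1alpha line (SE; limma, adjusted p = 9.8e-05), 2.02-fold. In water it fell by 0.86 ± 0.11 (adjusted p = 0.000565), 1.81-fold, and both calls held when any 1 of the 12 arrays was left out. Bmper, a secreted BMP-binding modulator, was below background in all arrays. It lay at 6.50, 6.32 and 6.56 in PGC-1alpha explants with phenformin, against 7.19, 7.37 and 6.77 in control-line explants with phenformin. The groups did not overlap and Bmper fell by 0.65 ± 0.17 on the log2 scale (adjusted p = 0.0441). That call held in 5 of 12 fits with 1 array left out, and was lost without any of the 3 PGC-1alpha phenformin arrays, control-line phenformin replicates 1 or 2, replicate 3 of the PGC-1alpha water arrays or replicate 1 of the control-line water arrays (adjusted p up to 0.210).

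Bmp4 encodes a ligand that signals through Bmpr1a and Bmpr2, and it was well above background in every array. Its log2 values were 10.03, 10.15 and 9.92 in PGC-1alpha explants with phenformin and 8.75, 9.03 and 9.45 in PGC-1alpha explants in water. In control-line explants they were 10.25, 10.51 and 10.29 with phenformin and 9.91, 9.40 and 9.62 in water. Within each line the 3 phenformin arrays all lay above the 3 water arrays. The order of the group means was control-line phenformin, PGC-1alpha phenformin, control-line water and PGC-1alpha water. Of these neighbours the 2 water groups overlapped, and PGC-1alpha phenformin (lowest array 9.92) barely cleared control-line water (highest array 9.91).

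In PGC-1alpha explants the Bmp4 mean was 10.03 ± 0.12 with phenformin and 9.08 ± 0.35 in water (SD, n = 3 each), a difference of 0.96 ± 0.17 (SE) or 1.94-fold, given as a description. It lay between 0.79 and 1.14 with 1 array left out. In control-line explants, whose arrays did not enter the choice of Bmp4, the mean was 10.35 ± 0.14 with phenformin and 9.64 ± 0.26 in water (SD, n = 3 each). This difference of 0.70 ± 0.17, 1.63-fold, did not pass (limma, adjusted p = 0.0653). It passed without water replicate 1 of the PGC-1alpha line (adjusted p = 0.0474), without its water replicate 3 (0.0385) and without water replicate 1 of the control line (0.0458), while without control-line water replicate 2 it was 0.58 (adjusted p = 0.214). With the gap between positive and negative control probe sets as a covariate, the differences were 1.05 in PGC-1alpha explants and 0.83 in control-line explants. No BMP pathway gene passed between treatments in that fit, and the gap cannot be told apart from the treatment. Over all alternative fits the adjusted p of the control-line difference ran from 0.00890 to 0.540 (limma). The 2 responses differed by 0.25 ± 0.24 (adjusted p = 0.941). This test and the line comparisons next use PGC-1alpha arrays on which Bmp4 was chosen, and are not free of that choice. Between the lines, Bmp4 differed by -0.57 ± 0.17 in water (adjusted p = 0.141, arrays overlapping) and by -0.31 ± 0.17 under phenformin (adjusted p = 0.406, arrays not overlapping).

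Bmp2, the closest relative of Bmp4 among the ligands, was below background in all 12 arrays. Its log2 values were 5.66, 5.56 and 5.92 in PGC-1alpha explants with phenformin and 6.13, 6.31 and 6.78 in PGC-1alpha explants in water. They were 5.28, 5.48 and 5.13 in control-line explants with phenformin and 5.52, 5.78 and 5.82 in control-line explants in water. The PGC-1alpha arrays lay above the control-line arrays of the same treatment. Bmp2 rose by 0.70 ± 0.17 in the PGC-1alpha line in water (limma, adjusted p = 0.0476), with no fold given because both groups were below background. That call held in 1 of 12 fits with 1 array left out, the one without PGC-1alpha water replicate 1 (0.84, adjusted p = 0.0317), and was lost without each other array, at adjusted p values up to 0.167. Phenformin minus water gave -0.69 ± 0.17 in PGC-1alpha explants (adjusted p = 0.122) and -0.41 ± 0.17 in control-line explants (adjusted p = 0.231). At these levels the values do not give a direction of expression.

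Bmp7, a ligand of the second BMP branch with Bmp5 and Bmp6, was above background in every array and moved little. It lay at 10.66, 10.70 and 10.56 in PGC-1alpha explants with phenformin and at 10.43, 10.43 and 10.66 in PGC-1alpha explants in water. In control-line explants it lay at 10.38, 10.56 and 10.52 with phenformin and at 10.54, 10.25 and 10.38 in water. The groups overlapped in all 4 pairwise comparisons, and the differences were 0.10 to 0.15 with adjusted p values of 0.576 to 0.788.

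The receptors also stayed within the spread of the arrays. Bmpr1a, a type I receptor for BMP2 and BMP4, lay near background at 7.99, 7.75 and 8.05 in PGC-1alpha explants with phenformin and 7.90, 8.11 and 7.87 in PGC-1alpha explants in water. Control-line explants had 7.97, 8.19 and 7.97 with phenformin and 7.90, 7.76 and 8.06 in water. Bmpr2, the type II receptor that activates type I receptors, was above background throughout. Its values were 10.07, 9.89 and 10.12 in PGC-1alpha explants with phenformin and 10.09, 10.23 and 9.95 in PGC-1alpha explants in water, against 9.96, 10.33 and 10.01 in control-line explants with phenformin and 9.71, 10.09 and 10.25 in control-line explants in water. Differences ran from -0.11 to 0.14 ± 0.12 (SE) for Bmpr1a and from -0.08 to 0.08 ± 0.15 (SE) for Bmpr2, and all groups overlapped.

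Id2 encodes an inhibitor of differentiation that mammary cells use during pregnancy-linked alveolar growth. Its log2 values were 11.82, 11.76 and 11.83 in PGC-1alpha explants with phenformin and 11.77, 11.77 and 11.71 in PGC-1alpha explants in water. Control-line explants had 11.63, 11.72 and 11.68 with phenformin and 11.17, 11.33 and 11.34 in water. Control-line water was the low group, and the other 3 groups lay close together. In water the mean was 11.75 ± 0.03 in PGC-1alpha explants and 11.28 ± 0.10 in control-line explants (SD, n = 3 each), and Id2 rose by 0.47 ± 0.10 (SE; limma, adjusted p = 0.0198), 1.38-fold. The call was lost without water replicate 1 of the PGC-1alpha line (adjusted p = 0.0761), without its water replicate 2 (0.0793), without water replicate 1 of the control line (0.0697), with the control-probe gap as a covariate (0.0808) and with only the groups compared in the fit (0.198). Without control-line water replicate 2, the array that stood apart, it was 0.49 (adjusted p = 0.0339). Under phenformin the lines differed by 0.13 ± 0.10 (adjusted p = 0.580). Phenformin minus water gave 0.06 ± 0.10 in PGC-1alpha explants (adjusted p = 0.885) and 0.40 ± 0.10 in control-line explants (adjusted p = 0.0624). The difference between these responses was -0.34 ± 0.14, with an unadjusted p of 0.0246 and an adjusted p of 0.928.

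Id3, a second direct BMP target, had log2 values of 8.49, 8.48 and 8.29 in PGC-1alpha explants with phenformin and 8.10, 8.05 and 8.04 in PGC-1alpha explants in water. In control-line explants it had 8.51, 8.64 and 8.51 with phenformin and 7.93, 7.93 and 8.06 in water. In both lines the phenformin arrays lay above the water arrays. The control-line mean was 8.55 ± 0.07 with phenformin and 7.97 ± 0.08 in water (SD, n = 3 each), and Id3 rose by 0.58 ± 0.10 (SE; limma, adjusted p = 0.0157), 1.5-fold. Without control-line water replicate 2 the difference was 0.56 (adjusted p = 0.0616), without control-line phenformin replicate 2 it was 0.54 (adjusted p = 0.101) and without control-line phenformin replicate 3 it was 0.60 (adjusted p = 0.0574). With the control-probe gap as a covariate it was 0.44 (adjusted p = 0.571). In PGC-1alpha explants the difference was 0.36 ± 0.10 (adjusted p = 0.196), 1.28-fold. The Id3 responses of the lines differed by -0.23 ± 0.14 (limma, adjusted p = 0.928). Between the lines Id3 differed by 0.10 in water and -0.13 under phenformin, neither past the test (adjusted p 0.807 and 0.590).

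Id1, the most studied BMP target of the family, lay at 11.74, 11.80 and 11.79 in PGC-1alpha explants with phenformin and at 11.54, 11.54 and 11.71 in PGC-1alpha explants in water. It lay at 11.62, 11.79 and 11.73 in control-line explants with phenformin and at 11.43, 11.40 and 11.24 in control-line explants in water. Phenformin minus water gave 0.18 ± 0.10 in PGC-1alpha explants (adjusted p = 0.552) and 0.35 ± 0.10 in control-line explants (adjusted p = 0.109), both without overlap of the arrays. In water the lines differed by 0.24 ± 0.10 (adjusted p = 0.372). Bmp4 and the Id genes share the same water arrays, so their likeness is not separate evidence.

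The 9 genes were also counted by whether the 3 arrays of one group all lay beyond those of the other. Between the lines under phenformin, 5 of 9 did so, 2 higher (Bmp2 and Id2) and 3 lower (Grem1, Bmp4 and Id3) in PGC-1alpha explants, where 27.5% of all genes did, 11.1% higher and 16.4% lower. In water 4 of 9 did so, 3 higher (Bmp2, Id1 and Id2) and 1 lower (Grem1), where 14.1% of all genes did, 6.53% higher and 7.61% lower. Under phenformin against water, 4 of 9 did so in PGC-1alpha explants, 3 higher (Bmp4, Id1 and Id3) and 1 lower (Bmp2), where 19.6% of all genes did, 8.93% higher and 10.7% lower. In control-line explants 5 of 9 did so, 4 higher (Bmp4, Id1, Id2 and Id3) and 1 lower (Bmp2), where 19.4% of all genes did, 11.5% higher and 7.86% lower. Bmp2 was below background throughout, so its place in these counts is that of a dim probe set. These counts describe a few related genes and carry no test.

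**Figure D2:**
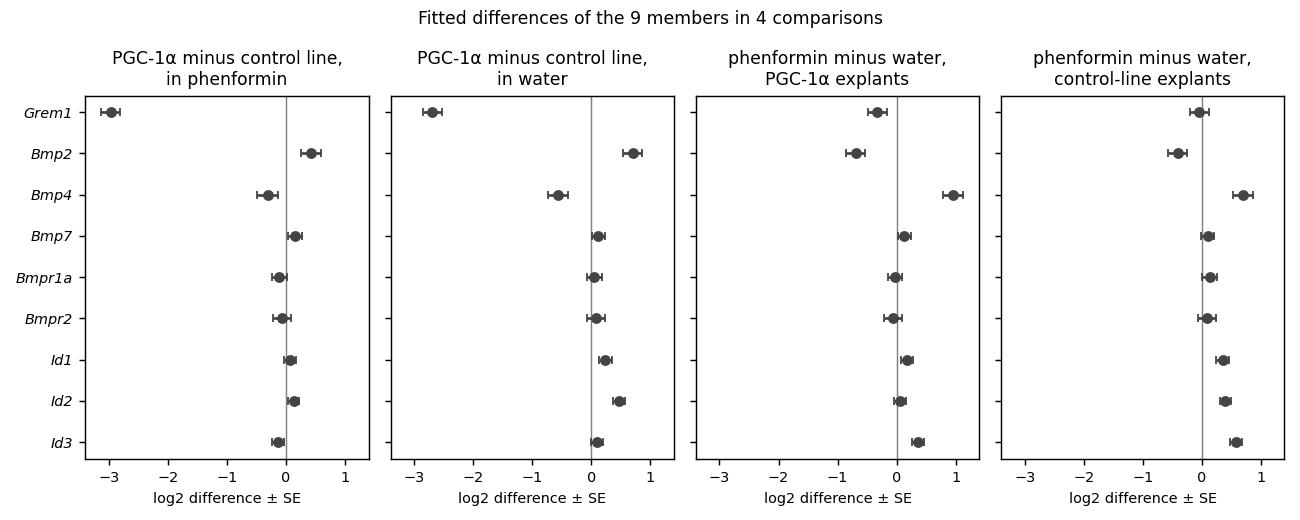
Fitted log2 difference ± SE (horizontal axes) of the 9 genes in 4 comparisons, PGC-1alpha minus control line under each treatment and phenformin minus water in each line. Grem1 stands at -2.97 and -2.69 between the lines and at -0.32 and -0.04 between treatments, whereas Bmp4 stands at 0.96 and 0.70 between treatments.

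The wider pathway was read through lists of ligands, antagonists, receptors, Smads and target genes. Of the 62 symbols listed, 59 were measured, and 36 of these 59 genes were above background in no array. Between the lines in water, 2 genes were higher (Bmp2 and Id2) and 2 lower (Nbl1 and Grem1, which was chosen on this comparison) in the PGC-1alpha line. These are 6.78% of the 59, a share that counts the untested Grem1 and the dim Bmp2 and so is not free of the choice. Of all genes, 2% passed in either direction (limma, adjusted p under 0.05), 0.636% higher and 1.37% lower. Under phenformin, none was higher and 3 were lower (Grem1, Nbl1 and Bmper), or 5.08% of the 59. That share counts Grem1, chosen as low in this line in water, and the dim Bmper, so it is not free of the choice. Of all genes, 4.01% passed in either direction under phenformin, 0.856% higher and 3.16% lower. Phenformin minus water gave 1 higher gene in PGC-1alpha explants, Bmp4, which was chosen there, where 0.195% of all genes passed, 0.133% higher and 0.0615% lower. In control-line explants it gave 1 higher gene, Id3, which is 1.69% of the 59, where 1.2% of all genes passed, 0.918% higher and 0.282% lower. No gene of the 59, and no gene of all 19505, passed in the difference between the responses (limma, percent called 0), with 6 of 59 and 1018 of 19505 at an unadjusted p under 0.05.

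The median log2 difference of the 59 genes was 0.04 between the lines under phenformin, 0.00 between them in water, -0.01 for phenformin in PGC-1alpha explants and -0.03 for phenformin in control-line explants. Over all genes the medians were -0.01, 0.00, -0.02 and -0.01 in the same comparisons. Because 36 of the 59 genes were above background in no array, these medians are largely those of dim probe sets. By role, the 3 genes that passed as lower under phenformin were all among the 16 antagonists measured. Of the 3, Grem1 was chosen as low in this line in water. Bmper was below background in every array, and its call held in 5 of 12 fits with 1 array left out. Of the 16 antagonists, 8 had a positive difference, and their median was 0.02. The remaining antagonists above background in every array were Crim1, Fstl1 and Twsg1, which did not pass. Crim1 differed between the lines by -0.02 ± 0.10 under phenformin and by 0.38 ± 0.10 in water (adjusted p 0.949 and 0.0846), with every PGC-1alpha array above every control-line array in water. Fstl1 differed by -0.48 ± 0.27 under phenformin and 0.27 ± 0.27 in water (adjusted p 0.431 and 0.796), and Twsg1 by -0.33 ± 0.11 and -0.15 ± 0.11 in the same order (adjusted p 0.133 and 0.683). None of the 12 receptors and coreceptors and none of the 8 Smads and Smad regulators passed in any comparison (limma). Between the lines under phenformin, 1 of these 8 Smad genes had a positive difference, and their median was -0.18. At an unadjusted p under 0.05 there were at most 2 receptors and at most 2 Smad genes in a comparison. Smad1, a direct substrate of the type I receptors, differed by 0.14 ± 0.14 for phenformin in PGC-1alpha explants and 0.38 ± 0.14 in control-line explants (adjusted p 0.768 and 0.196).

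Among the 9 target genes measured, the median difference for phenformin was 0.15 in PGC-1alpha explants, where all 9 were positive and none passed (limma, 1 at an unadjusted p under 0.05), and 0.00 in control-line explants, where 5 were positive. Over all genes 45.9% were positive for phenformin in PGC-1alpha explants and 49% in control-line explants. Id1, Id2 and Id3 were above background in all 12 arrays, and the other 6 targets were above it in none. Tbx3, a T-box factor of mammary development below background here, differed by 0.27 ± 0.13 in PGC-1alpha explants and -0.23 ± 0.13 in control-line explants (adjusted p 0.470 and 0.402).

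**Figure D3:**
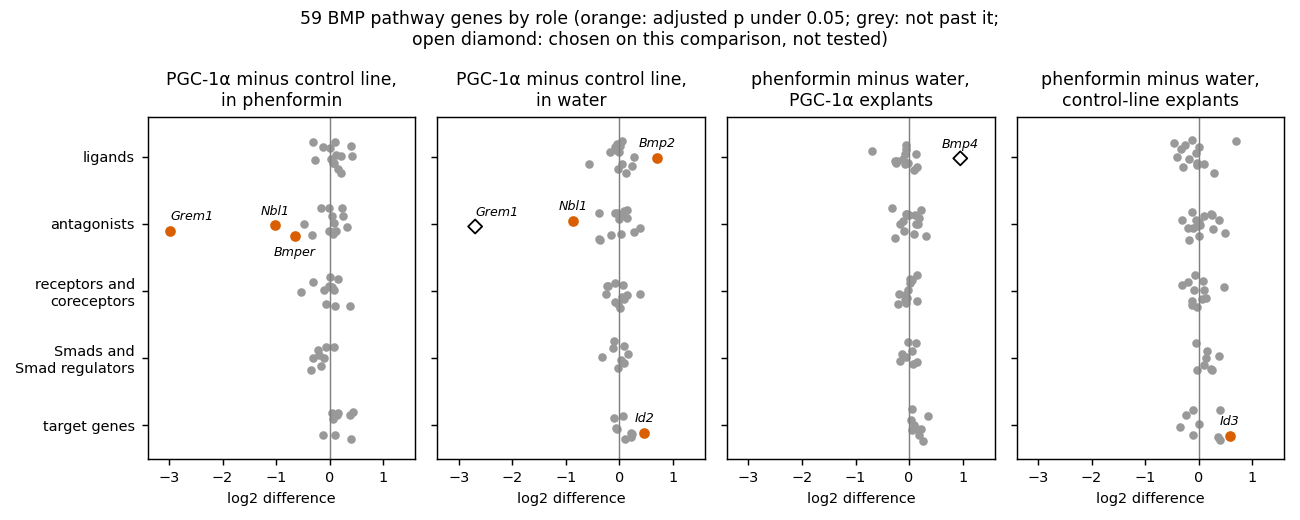
Log2 difference (horizontal axes) of the 59 measured BMP pathway genes in 4 comparisons, by role (rows), with genes past an adjusted p of 0.05 in orange, the others in grey and open diamonds for genes chosen on that comparison. The genes that passed as lower in the PGC-1alpha line are antagonists, led by Grem1 at -2.97 and Nbl1 at -1.01 under phenformin. Of these, Grem1 was chosen as low in this line in water, and Bmper is below background in every array. Genes of other roles also lie below 0 without passing.

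The TGF-beta and activin arm, whose receptors act through Smad2 and Smad3 and which shares Smad4 with BMP, was read in the same way. Of 22 genes measured, 3 were lower in the PGC-1alpha line under phenformin and none higher, which is 13.6% of the 22 where 4.01% of all genes passed, 3.16% lower and 0.856% higher. No gene of the arm passed in water or between treatments (limma). At an unadjusted p under 0.05 there were 6 of 22 between the lines in water (2304 of all 19505 genes), 3 for phenformin in PGC-1alpha explants (2219 of all genes) and 1 for phenformin in control-line explants (3269 of all genes). Tgfbr2, the type II TGF-beta receptor, had 9.18, 9.21 and 9.07 in PGC-1alpha explants with phenformin, against 9.88, 10.08 and 9.86 in control-line explants with phenformin. It fell by 0.78 ± 0.10 on the log2 scale (adjusted p = 0.000511), 1.72-fold. Inhba, the activin A subunit, had 10.40, 10.37 and 10.43 in PGC-1alpha explants with phenformin, against 10.93, 11.03 and 10.95 in control-line explants with phenformin, and fell by 0.57 ± 0.10 (adjusted p = 0.00386), 1.49-fold. Both calls held when any 1 array was left out. In water Tgfbr2 differed by -0.34 ± 0.10 and Inhba by -0.37 ± 0.10 (limma, adjusted p 0.135 and 0.0791), both without overlap of the arrays. For neither gene did the difference between the phenformin responses pass (adjusted p 0.928 for each). Under phenformin Ski, a repressor of Smad activity, fell by 0.52 ± 0.13 in the PGC-1alpha line (adjusted p = 0.0432). That call held without any 1 of the 3 control-line water arrays and was lost without any other array, with adjusted p values up to 0.185.

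The genes nearest to Grem1 in profile were found by the root mean square over the 12 arrays of the difference between 2 profiles, each taken less its own mean, among 17119 genes. Ptpn7, a tyrosine phosphatase, was nearest at 0.384 log2 units, followed by Aqp5, an aquaporin water channel, at 0.405, Mxra8 at 0.442, Lbp, the lipopolysaccharide-binding protein, at 0.50 and Dab2, an endocytic adaptor, at 0.504. The SD of Grem1 itself over the arrays was 1.5. Like Grem1, all 5 had lower means in both PGC-1alpha groups than in either control-line group. For Bmp4, whose SD was 0.535, the nearest were Pfkp, the platelet-type phosphofructokinase of glycolysis, at 0.149, Slc43a2, an amino acid transporter, at 0.151, Rogdi at 0.154, Prr13 at 0.168 and Vnn1, a pantetheinase, at 0.169. Each of these 5 had its highest mean in control-line explants with phenformin and its lowest in PGC-1alpha explants in water, as Bmp4 did. The genes share their arrays and were picked for likeness, so this is a description.

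**Figure D4:**
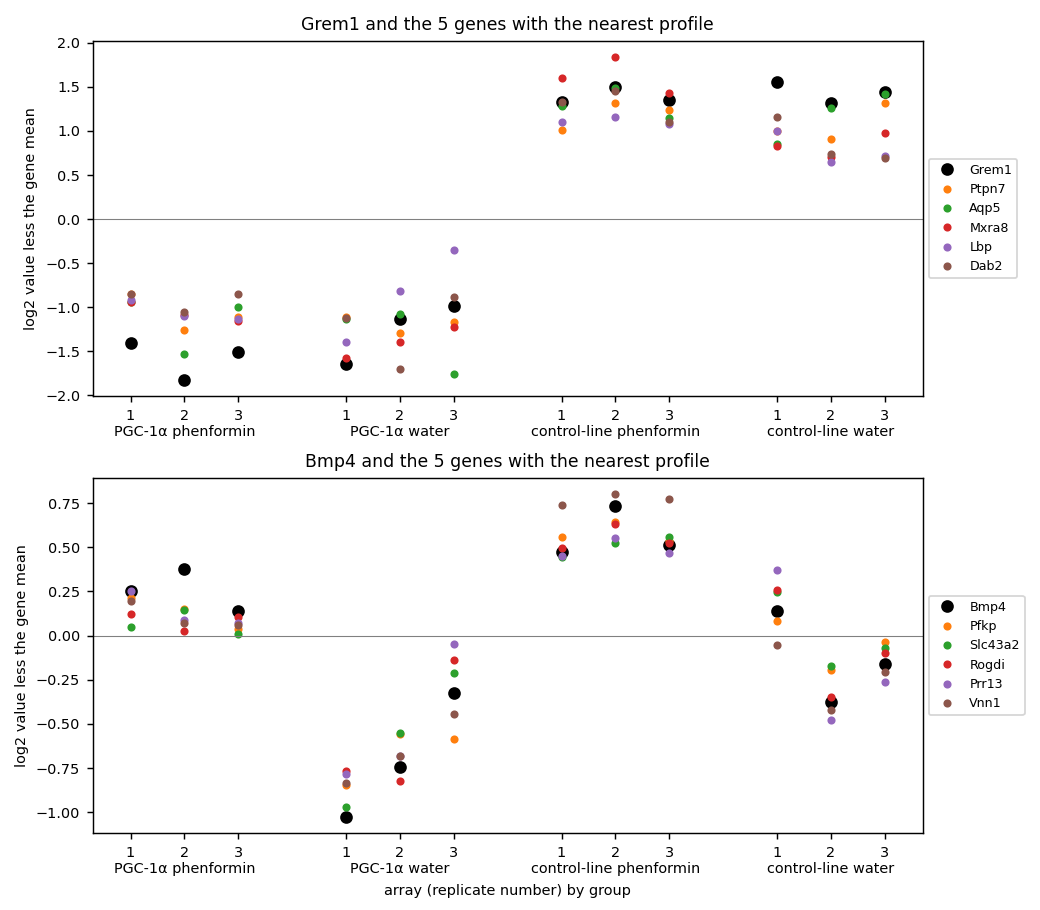
Log2 value less each gene's mean over the arrays (vertical axes) in the 12 arrays by group, for Grem1 (upper panel, black) and Bmp4 (lower panel, black) with the 5 nearest genes of each in colour. The Grem1 panel separates by line, and the Bmp4 panel separates by treatment within each line.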

How the data were processed

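The authors' deposited log2 expression values of 12 Clariom S mouse arrays were analysed, 1 column per sample. Per the labels' protocols, RNA was isolated with a total RNA kit and labelled from 10 ng with a small-input kit. Normalization, log base, software and genome build being not given in the sources used here, log2 was inferred from their range (1.5 to 13.65). A second table was not used because its 12 value columns match no sample label. Symbols came from the platform annotation, with the highest-mean probe set kept for the 55 genes with several, leaving 19505 genes with no filter on level.

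R 4.3.3 and limma 3.58.1 fitted every gene (lmFit, then eBayes; 4 group means, no replicate block, 8 residual degrees of freedom). Two-sided p-values were adjusted by Benjamini-Hochberg across the whole table, with a threshold of 0.05. The precision is limited by 3 arrays per group. On simulated data for phenformin minus water in PGC-1alpha explants (19505 genes), 21 of 100 genes changed by 0.5 log2 units and 96 of 100 changed by 1 were recovered, with 7 false calls.

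Genes named were the 9 members, Ppargc1a, every gene of the 5 BMP lists past the threshold, up to 6 such genes of the TGF-beta and activin arm and the 5 nearest profiles of Grem1 and of Bmp4, with predicted genes, olfactory or vomeronasal receptors and small RNAs skipped. Tbx3, Smad1, Crim1, Fstl1 and Twsg1 were added after their values were seen. The members and lists were chosen with earlier results of these data known. Some list members were not analysed here. Promoter sequences are RefSeq's, build GRCm38.p6. Alternatives were leaving out each array, a replicate block, quantile normalization, median centring, a filter on dim genes, averaged probe sets, only the groups compared, a trended robust fit, array weights and a control-probe covariate. No 2 arrays were identical.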

Additional observations from a re-analysis of the deposited data

How the results depend on the processing

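Counts of called BMP pathway genes depended on the fit. Between the lines in water the 4 calls count Grem1, which was chosen there and not tested. They became 2 with the replicate block, 2 with only the groups compared and 6 with the trended robust fit. With 1 array left out they ran from 2 to 4. Between the lines under phenformin the 3 calls became 6 with genes above the median level, 6 with the trended robust fit and 10 with array weights (2 to 4 with 1 array left out). For phenformin in PGC-1alpha explants the count of 1 is Bmp4, which was chosen there, so it is a description and not a test. It became 0 with the replicate block, with only the groups compared or with the control-probe covariate, and 2 with array weights (0 to 1). For phenformin in control-line explants the 1 call became 6 with genes above the median level, 5 with the trended robust fit, 0 with only the groups compared and 0 with the covariate (0 to 3). The difference between responses stayed at 0 in every fit run, and a fit of only the groups compared was not possible for it. Replicate numbers were shared by the titles alone: 1 of 18 same-numbered pairs correlated over 0.1 (-0.372 to 0.133). Under the block the Id2 difference in water had an adjusted p of 0.0513, and Grem1 under phenformin and Nbl1 in both treatments kept their calls.

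The signs that turned were all of differences that had not passed. They were Bmpr2 under quantile normalization (0.018 between the lines under phenformin and -0.015 for phenformin in control-line explants) and, with the control-probe covariate, Grem1 (0.021 for phenformin in PGC-1alpha and 0.41 in control-line explants), Bmpr1a (0.045) and Bmpr2 (0.077) for phenformin in PGC-1alpha explants, and Bmp2 (0.24) for phenformin in control-line explants. With 1 array left out, Bmpr1a ran from -0.022 to 0.13 between the lines in water and from -0.089 to 0.061 for phenformin in PGC-1alpha explants. Bmpr2 ran from -0.14 to 0.039 between the lines under phenformin, from -0.079 to 0.19 in water, from -0.13 to 0.0057 for phenformin in PGC-1alpha explants, from -0.069 to 0.20 in control-line explants and from -0.27 to 0.0041 for the difference of responses. Grem1 ran from -0.10 to 0.014 for phenformin in control-line explants, and Bmp7 from -0.040 to 0.11 for the difference of responses. The cause was not tested. Bmp2 and Bmper have no value with genes above the median level, since they are dimmer. Over the alternative fits of single tested differences, 971 kept direction and side of the threshold and 23 turned sign. Another 49 lost a call and 13 gained one. Most of the 971 were of differences with no call to lose, so that number does not measure how stable the calls were. The 49 losses fell on the few differences that had a call. The 42 fits of the 2 untested differences, Grem1 in water and Bmp4 in PGC-1alpha explants, moved them by less than the spread between arrays. Values below background, those of Bmp2, Bmper and of Grem1 in the PGC-1alpha line, limit what a fold can say.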
